A study of Mus musculus with 4 samples.

Results

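Synaptonemal complex genes were examined in mouse spermatocytes with and without Tdrd6, as 10 named genes among 37718 gene rows of the deposited tables: Sycp1, Sycp2, Sycp3, Syce1, Syce2, Syce3, Tex12, Hormad1, Hormad2 and Trip13. They were chosen by name, for their known place in or on the complex, with earlier results of these data known. All 10 had enough counts to be tested. RNA-seq was performed on hCD4+ cells of testes at 20 dpp (days post partum), from 2 Tdrd6+/- and 2 Tdrd6-/- samples, each a pool of at least 4 mice. The human CD4 protein marks cells in which the endogenous Tdrd6 promoter is active, and magnetic beads (MACS) bound to it enrich late prophase I cells, mainly diplotene spermatocytes. The controls are heterozygous, so cells of both genotypes lack at least one intact copy of Tdrd6, and no wild-type sample was compared. Total RNA was depleted of ribosomal RNA rather than selected for poly(A), so unspliced RNA was also counted. The study asked how the transcriptome and the splicing of diplotene cells differ when TDRD6, a Tudor domain protein of germ cells, is missing.

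The synaptonemal complex is a zipper-like protein structure that holds homologous chromosomes together along their length during pachytene and comes apart in diplotene, the stage enriched here. SYCP2 and SYCP3 form the lateral elements on the chromosome axes, SYCP1 forms the transverse filaments that bridge them, and SYCE1, SYCE2, SYCE3 and TEX12 build the central element in which the filaments meet. HORMAD1 and HORMAD2 sit on axes that are not yet synapsed, and the ATPase TRIP13 takes part in removing them once synapsis is made.

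Depth ranged from 26454326 to 31388750 counts on gene rows and from 9603669 to 13937818 counts on introns per sample. Introns held 31.0% and 27.1% of all tallied counts in Tdrd6+/- and 27.4% and 21.9% in Tdrd6-/-, so Tdrd6-/- replicate 2 stood lowest in intron counts across the genome. The samples labelled as replicates differed by far more than sampling noise (chi-square per degree of freedom 20.3 and 17.8), and p-values measure the spread between these pools. Tdrd6 itself had 33220 and 39322 counts in Tdrd6+/- cells against 359 and 400 in Tdrd6-/- cells, which bears out the labels. In bulk RNA, fewer cells of a type and less RNA per cell cannot be told apart.

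The cells carried the label's markers. Late pachytene and diplotene markers other than Tdrd6 summed to between 5756 and 7061 CPM (counts scaled to library size by TMM) per sample, against 29.1 to 30.6 CPM for 4 leptotene and zygotene markers. Protamine and transition protein genes of later spermatids (Prm1, Prm2, Tnp1 and Tnp2) stayed under 1 CPM in every sample, as did 3 blood markers. Some markers moved with genotype. Of the late pachytene and diplotene markers Piwil1, a PIWI protein gene of pachytene and later cells, was called lower, with 1092 and 921.8 CPM in Tdrd6+/- and 736.2 and 773.5 CPM in Tdrd6-/- (log2 fold change -0.44, edgeR adjusted p = 0.0773), as was Tdrd6 itself. Summed round spermatid markers were 9.09 and 13.0 CPM in Tdrd6+/- and 21.8 and 19.9 CPM in Tdrd6-/-, with Acrv1 and Spaca1 called higher. Summed markers were 76.1 and 76.0 against 92.0 and 99.1 CPM for Sertoli cells, and 24.4 and 23.7 against 28.7 and 33.1 CPM for spermatogonia, with no single gene of either list called. Of 6 Sertoli genes 5 had a positive fold change. Clu, the largest, had 38.0 and 42.4 against 47.6 and 61.0 CPM, while Sox9 was lower, with 2.87 and 1.85 against 1.18 and 1.61. The part of these markers in the results was not tested.

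Per length of annotated exon, the members spanned a wide range of levels. Syce1, a central element gene, was highest, with 302.5 and 368.8 CPM per kb in Tdrd6+/- and 381.8 and 438.8 CPM per kb in Tdrd6-/- (mean of all samples 373.0 ± 56.0, SD, n = 4). Sycp3 followed at 206.7 ± 25.4 CPM per kb, then Sycp2 at 112.8 ± 23.3 and Hormad1 at 93.3 ± 11.0. Sycp1 stood at 46.6 ± 13.7 and Syce3 at 45.0 ± 8.12 CPM per kb. The low end held Tex12 at 17.0 ± 3.24, Syce2 at 8.97 ± 1.52, Hormad2 at 8.17 ± 1.59 and Trip13 at 3.28 ± 0.413 CPM per kb. By this measure Syce1 ranked 64 and Trip13 ranked 7537 of 18827 genes with at least 10 counts. Of neighbours in this order, Sycp2 and Hormad1, Sycp1 and Syce3, and Syce2 and Hormad2 had overlapping ranges, and the other neighbouring pairs were separate in their ranges over the samples. The 4 central element genes were thus far from equal in RNA level, with Syce1 and Syce2 at opposite ends.

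**Figure D1:**
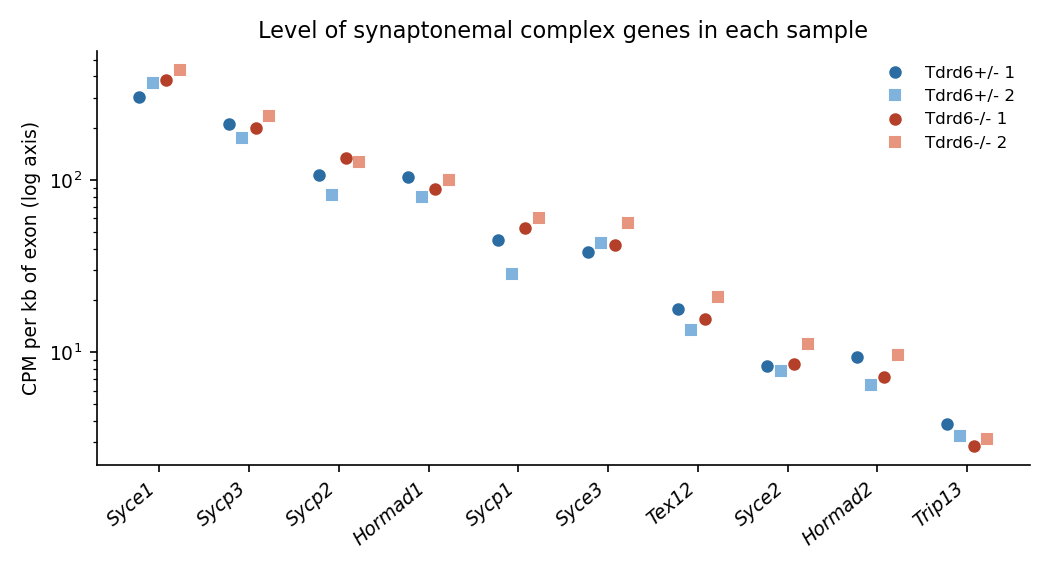
Level of each synaptonemal complex gene in CPM per kb of annotated exon (log axis), 1 point per sample, coloured by genotype. Syce1 is highest, with a mean of 373.0 CPM per kb, and Trip13 lowest, with 3.28.

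Of the 10 genes, 2 were called higher in Tdrd6-/- cells at FDR 0.1 and 0 lower, the transverse filament gene Sycp1 and the lateral element gene Sycp2. Across the transcriptome 4.80% of 16555 genes tested were called in either direction and 1.02% were called higher. Fold changes of 9 of 10 members were above 0, with a median log2 fold change of 0.23 against 0.01 over all genes tested.

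Sycp1, the gene of the transverse filament (chr3:102818499-102936100 of mm10, minus strand), had 159.4 and 101.1 CPM in Tdrd6+/- and 186.5 and 215.7 CPM in Tdrd6-/-. Both Tdrd6-/- samples were above both Tdrd6+/- samples, which themselves lay far apart. The log2 fold change was 0.60 ± 0.16 (SE), or 1.52-fold, with an adjusted p of 0.0467 in edgeR's quasi-likelihood test. Without Tdrd6+/- replicate 1 the log2 fold change was 0.98 (edgeR adjusted p = 0.000332) and without Tdrd6+/- replicate 2 it was 0.31 (adjusted p = 0.257). The call was also lost without Tdrd6-/- replicate 2 (0.50, edgeR adjusted p = 0.293).

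Sycp2, a lateral element gene (chr2:178345293-178407685, minus strand), had 639.2 and 491.8 CPM in Tdrd6+/- and 802.9 and 758.5 CPM in Tdrd6-/-. The groups did not overlap, and the Tdrd6-/- samples lay close together. The log2 fold change was 0.44 ± 0.14 (SE), 1.36-fold, and its adjusted p of 0.09997 (edgeR) was only just under the threshold. The log2 fold change was 0.66 without Tdrd6+/- replicate 1, and the call was lost without Tdrd6+/- replicate 2 (0.26, edgeR adjusted p = 0.327), without Tdrd6-/- replicate 1 (0.39, adjusted p = 0.348) and without Tdrd6-/- replicate 2 (0.49, adjusted p = 0.278). With no filter on low counts neither gene was called (edgeR adjusted p = 0.429 for Sycp1 and 0.380 for Sycp2).

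Sycp3, whose protein is the other main lateral element component (chr10:88459569-88473236, plus strand), had 269.2 and 221.9 CPM in Tdrd6+/- and 254.8 and 299.0 CPM in Tdrd6-/-. Its groups overlapped, with a log2 fold change of 0.15 ± 0.14 (SE) and an adjusted p of 0.720 (edgeR). That its change differs from that of Sycp2 was not tested.

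Counts on exon-exon junctions gave the same picture along the transcripts of the called genes. Among annotated junctions with at least 50 counts, all 32 of Sycp1 had a higher mean CPM in Tdrd6-/-, and 27 were higher in both Tdrd6-/- samples than in both Tdrd6+/- samples. For Sycp2 all 43 had a higher mean and 41 did not overlap. Over all 80719 junctions of this depth, 18.7% were higher in both Tdrd6-/- samples. Junctions of one gene are read from the same transcripts as its gene count, so they are not separate evidence of its change. In Sycp3 all 8 junctions had a higher mean but 1 was free of overlap. Higher means were not particular to the called genes. All 12 junctions of Syce1 had one, with 8 higher in both Tdrd6-/- samples. So had all 4 of Syce2 (0 higher in both), all 2 of Syce3 (1) and all 4 of Tex12 (1). In Hormad1 15 of 17 did (0) and in Hormad2 9 of 10 (2), while Trip13 is given below. The share of all junctions with a higher mean was not determined.

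**Figure D2:**
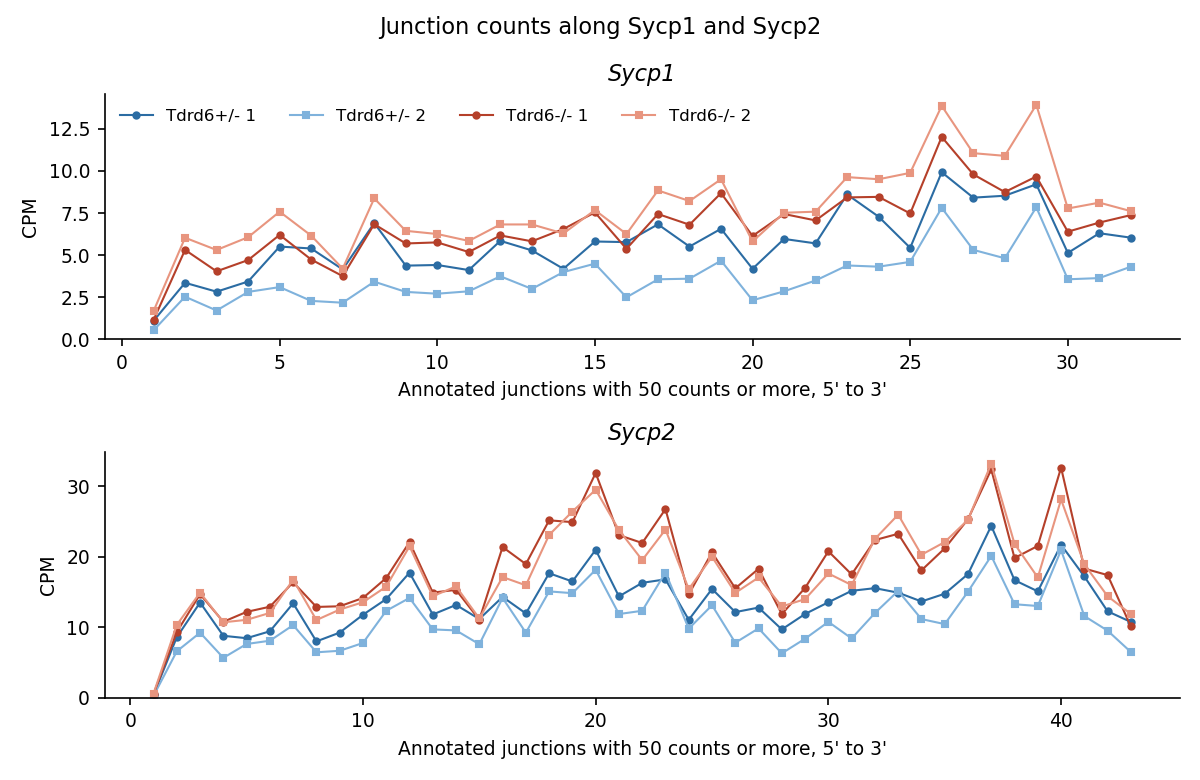
CPM on each annotated junction with at least 50 counts, in transcript order from 5′ to 3′, for Sycp1 and Sycp2, with 1 line per sample. In Sycp1 27 of 32 and in Sycp2 41 of 43 junctions are higher in both Tdrd6-/- samples.

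None of the central element genes was called. Syce1 (chr7:140777229-140787852, minus strand) had 441.6 and 538.4 CPM in Tdrd6+/- and 557.4 and 640.7 CPM in Tdrd6-/-, so its groups were apart by a narrow margin (log2 fold change 0.26 ± 0.14, SE, edgeR adjusted p = 0.403). Syce2 (chr8:84872111-84888221, plus strand) had 16.4 and 15.4 CPM against 16.8 and 22.0 CPM, with a log2 fold change of 0.26 ± 0.19 (edgeR adjusted p = 0.602). In Syce2 the first Tdrd6-/- sample was nearly level with the controls and the second was higher. Syce3 (chr15:89390174-89410503, minus strand) had 21.05 and 23.92 CPM in Tdrd6+/- and 23.15 and 31.36 CPM in Tdrd6-/-, and Tex12 (chr9:50556819-50561325, minus strand) had 18.1 and 13.7 against 15.8 and 21.4 CPM. Both overlapped between groups. Their log2 fold changes were 0.25 ± 0.18 and 0.20 ± 0.20 (SE), with edgeR adjusted p of 0.601 and 0.750. In all 4 central element genes Tdrd6-/- replicate 2 was the highest sample, as it was in Sycp1, Sycp3 and Hormad2. The share of all genes with this sample highest was not determined.

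The HORMA domain genes and Trip13 showed no call either. Hormad1 (chr3:95559677-95587671, plus strand) had 180.0 and 138.5 CPM in Tdrd6+/- and 153.3 and 173.4 CPM in Tdrd6-/-, both of the latter within the range of the controls (log2 fold change 0.01 ± 0.14, SE, edgeR adjusted p = 0.985). Hormad2 (chr11:4345814-4441105, minus strand) had 25.7 and 17.6 against 19.6 and 26.3 CPM, again overlapping (0.06 ± 0.20, adjusted p = 0.943). Trip13 (chr13:73911347-73937784, minus strand) was the one member with a negative fold change. It had 13.4 and 11.3 CPM in Tdrd6+/- and 9.95 and 10.9 CPM in Tdrd6-/-, without overlap, but the log2 fold change of -0.27 ± 0.20 (SE) had an edgeR adjusted p of 0.633. Its junctions did not share this direction. Of 8 Trip13 junctions with at least 50 counts, 6 had a higher mean CPM in Tdrd6-/-. In both Tdrd6-/- samples 2 of these 8 were higher and 0 lower. In CPM, 4 members (Sycp1, Sycp2, Syce1 and Syce2) were higher in both Tdrd6-/- samples, against 22.9% of all genes, and 1 was lower in both, against 21.1%.

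**Figure D3:**
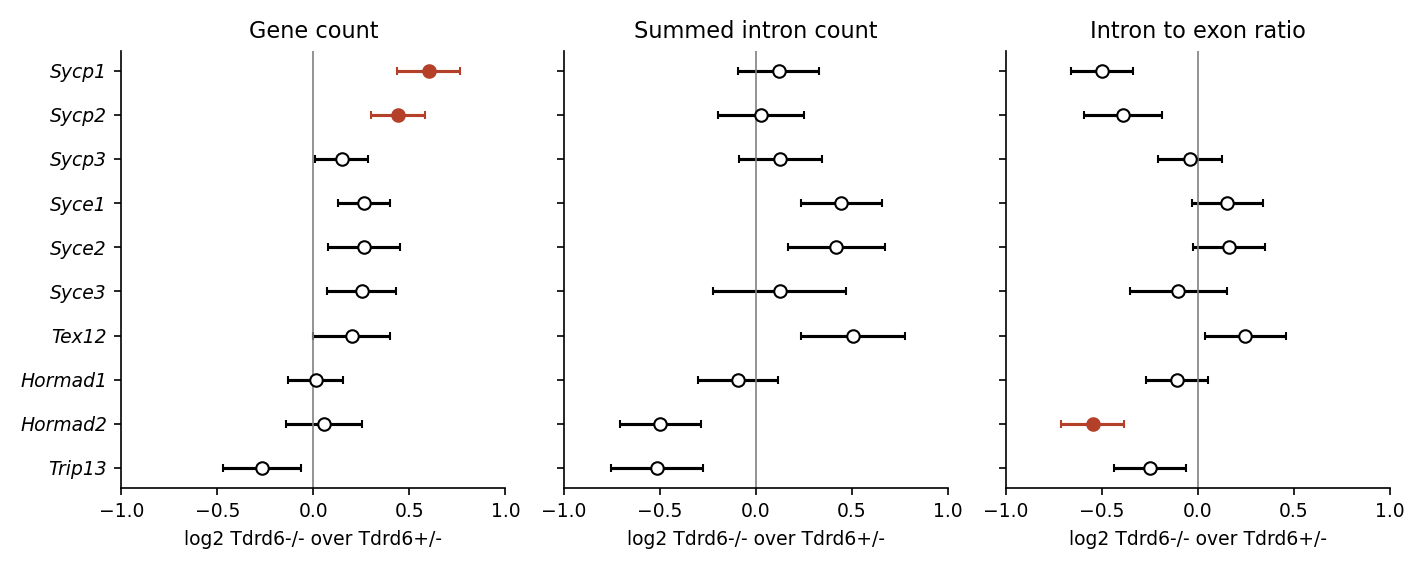
Log2 fold change of each synaptonemal complex gene in Tdrd6-/- over Tdrd6+/- with its standard error, for the gene count, the summed intron count and the intron to exon ratio, with filled points for calls at FDR 0.1. The gene counts of Sycp1 (0.60) and Sycp2 (0.44) and the ratio of Hormad2 (-0.55) are called.

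The genes that work beside the complex were taken as 5 lists of 36 genes, of which 35 were found and 34 tested. Only the crossover factor Msh4, whose protein stabilises recombination intermediates together with MSH5, was called. It had 11.5 and 11.1 CPM in Tdrd6+/- and 16.0 and 19.9 CPM in Tdrd6-/- (log2 fold change 0.64 ± 0.19, SE, edgeR adjusted p = 0.0806). Of the axis and cohesin partners 0 of 7 tested were called, though 6 had a positive fold change and the list's median was 0.39. The other medians were -0.04 over 11 crossover factors, 0.01 over 6 genes of chromosome ends and 0.13 over 9 genes of disassembly and HORMA removal, against 0.01 over all genes. Six6os1, whose protein is a further central element component, had a log2 fold change of -0.18. At an unadjusted p under 0.05, 6 of the 34 genes passed (edgeR), against 14.0% of all genes tested.

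Intron counts were compared next. Summed over the introns of a gene, Sycp1 had 2542 and 1647 counts in Tdrd6+/- and 2216 and 2075 in Tdrd6-/-, and Sycp2 had 12920 and 7758 against 10797 and 9202. Both pairs of groups overlapped, with log2 fold changes of 0.12 and 0.03, against 0.60 and 0.44 for their gene counts. In Syce1, Syce2, Tex12 and Trip13 the intron and gene counts had fold changes of the same sign, with those of introns the larger. Of the 10 members 0 were called for summed introns by edgeR at FDR 0.1, where 1.42% of 15025 genes were. At an unadjusted p under 0.05, 3 members passed in edgeR (Syce1, Hormad2 and Trip13) and 2 in DESeq2 (Hormad2 and Trip13), against 12.8% and 6.63% of all genes. In DESeq2 0 were called, but only 6 of the 10 had an adjusted p. Trip13, Syce2, Syce3 and Tex12 had none and could not be called there. Hormad2 had 2413 and 1647 intron counts in Tdrd6+/- and 1590 and 1169 in Tdrd6-/- (log2 fold change -0.50, edgeR adjusted p = 0.283). Trip13 had 435 and 336 against 272 and 240 (-0.52, adjusted p = 0.343). In both genes each Tdrd6-/- sample was below each control, in these unscaled counts and in TMM-scaled intron CPM. Syce1 had 2586 and 2847 against 3311 and 3630 intron counts, higher in both Tdrd6-/- samples by either measure (0.45, edgeR adjusted p = 0.357). The share of all genes whose summed introns were separated in this way was not determined, so these separations are description only.

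The intron share, the percentage of a gene's intron and gene counts that fell on introns, differed widely among members. It was highest in Hormad2, with 78.0% and 76.9% in Tdrd6+/- and 72.0% and 58.4% in Tdrd6-/-. Trip13 had 55.1% and 51.5% against 46.5% and 41.0%, Sycp2 43.3% and 36.0% against 30.0% and 27.7%, and Sycp1 37.6% and 36.7% against 27.4% and 23.3%. Hormad1 had 40.2% and 37.6% against 35.1% and 29.7%, and Sycp3 10.3% and 9.18% against 8.04% and 7.59%. All 7 introns of Sycp3 overlap Chpt1 on the opposite strand, so the source of its intron counts is uncertain. These 6 members had a lower share in both Tdrd6-/- samples, and for each the exact two-sided permutation test gave p = 0.333, the smallest that 2 against 2 samples allow. Across the genome 38.0% of 13030 genes were lower in both Tdrd6-/- samples, beside the lower intron total of Tdrd6-/- replicate 2 given above, whose part was not tested. Groups overlapped in Syce1 (15.2% to 18.1%), Syce2 (25.7% to 33.7%), Syce3 (4.61% to 8.77%) and Tex12 (24.2% to 27.4%), the 4 central element genes.

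**Figure D4:**
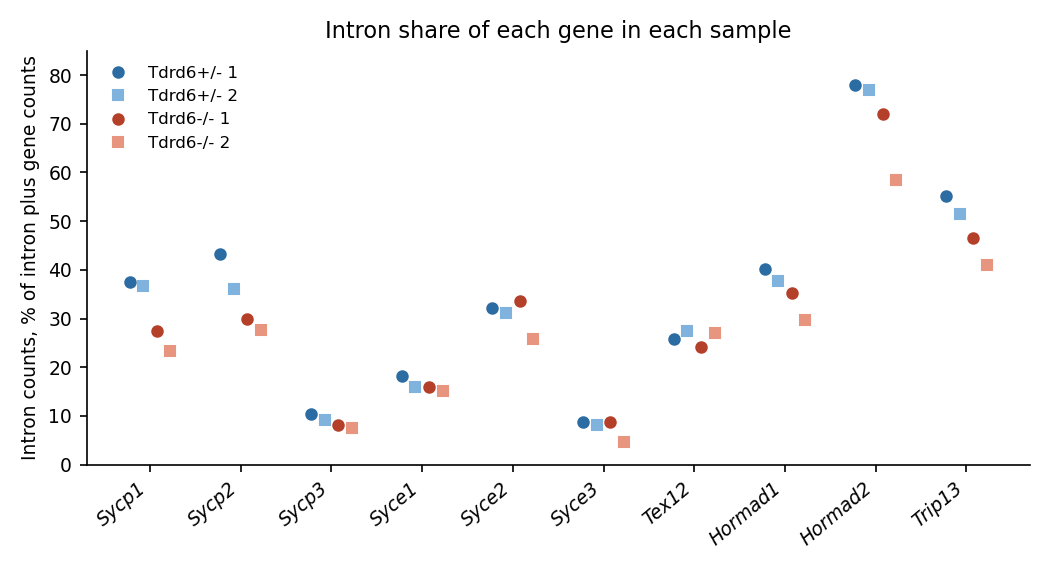
Percentage of each gene's intron and gene counts that fell on introns, 1 point per sample, coloured by genotype. Hormad2 ranges from 58.4% to 78.0%, and the groups of 6 members do not overlap.

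To set a gene's introns against its exons beyond such differences between libraries, introns and exons were each scaled by their own TMM factors and the ratio was tested. Hormad2 was called, with a log2 change of its intron to exon ratio of -0.55 ± 0.17 (SE, edgeR adjusted p = 0.0835). Of 13030 genes 2.99% were called and 1.80% were called lower. Sycp1 came next with -0.50 ± 0.16 (edgeR adjusted p = 0.110), followed by Sycp2 with -0.39 ± 0.20 (adjusted p = 0.403). The other 7 members lay between -0.25 (Trip13) and 0.25 (Tex12), and the median over members was -0.11 against 0.06 over all genes. The Hormad2 call was lost without Tdrd6+/- replicate 1 (-0.59, edgeR adjusted p = 0.450) or Tdrd6+/- replicate 2 (-0.52, adjusted p = 0.307), where the ratio itself moved little. Without Tdrd6-/- replicate 2 the ratio was -0.32 (edgeR adjusted p = 0.537), and without Tdrd6-/- replicate 1 it was -0.78 (adjusted p = 0.000933). It was also lost when introns and exons shared scaling factors (-0.85, edgeR adjusted p = 0.129), which moved the median over all genes to -0.24, and without the largest Hormad2 intron (-0.47, adjusted p = 0.106).

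Differential intron usage asks whether 1 intron changed relative to the other introns of its gene. Of 146 introns of the members, 145 had at least 10 counts, 68 passed the filter on mean counts and 5 were called by a DEXSeq-type model at FDR 0.1, where 1.94% of 28903 introns were. All 5 lie in Sycp1 and Sycp2, which have 32 and 44 introns, of which 6 and 32 passed the filter. Of Syce3 and Trip13 0 introns passed it, and of Syce2 and Tex12 1 each, so these genes could hardly show a call. Introns are numbered along the chromosome, so that in these minus-strand genes the last number is the first intron of the transcript. Introns of a gene share a total, and a higher share of some means a lower share of others.

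The exon ends that are joined when 4 of these introns are spliced out are shown here to place them in the coding sequence (GENCODE M21, mm10, minus strand), with the last 15 bases of the upstream exon in lower case and the first 15 of the downstream exon in capitals:
Sycp1 intron 9: gcatatgagataaagGTCAGTAAATTAGAG
Sycp2 intron 30: tgtacaacattgaagTGAGAGAATCAAAGA
Sycp2 intron 21: gaagaaataccagtgAGAGAAAATTCAAAA
Sycp2 intron 9: caaaacaagagagagGGAAATCATGCAGCA

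The 3 introns with lower usage were long ones, called among 1.22% of introns across the genome in that direction. Sycp1 intron 9 (chr3:102854228-102864856, 10629 bp, intron 24 of transcript Sycp1-201) held 16.2% and 16.8% of all Sycp1 intron counts in Tdrd6+/- and 12.3% and 10.3% in Tdrd6-/-. Its counts were 413 and 276 against 272 and 213, with a log2 change in usage of -0.64 ± 0.19 (SE, DESeq2 adjusted p = 0.0680). It was also the Sycp1 intron with most counts. Sycp2 intron 21 (chr2:178369396-178374354, 4959 bp, intron 23 of Sycp2-201) held 3.07% and 2.63% against 1.74% and 1.76% (counts 396 and 204 against 188 and 162), a change of -0.72 ± 0.20 (DESeq2 adjusted p = 0.0326). Sycp2 intron 30 (chr2:178383615-178389452, 5838 bp, intron 14) held 6.46% and 6.43% against 5.03% and 4.00% (counts 834 and 499 against 543 and 368), a change of -0.55 ± 0.18 with a DESeq2 adjusted p of 0.09996, at the threshold. In all 3 the shares of the genotypes did not overlap, but they were picked by their usage calls, so this adds no separate support. Such separation was common within Sycp1 and Sycp2. Of 32 Sycp1 introns 13 had a higher and 9 a lower share in both Tdrd6-/- samples. Of 44 Sycp2 introns 12 were higher and 15 lower. The share of all introns separated in this way was not determined, so these counts are description only.

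The 2 introns with higher usage were short, where 0.716% of introns across the genome were called higher. Sycp1 intron 32 (chr3:102935666-102935985, 320 bp), the first intron of the gene, held 3.82% and 4.13% of Sycp1 intron counts in Tdrd6+/- and 6.27% and 7.81% in Tdrd6-/-. Its counts were 97 and 68 against 139 and 162, so here the counts themselves were higher in Tdrd6-/-, and the change in usage was 0.87 ± 0.25 (SE, DESeq2 adjusted p = 0.0442). Sycp2 intron 9 (chr2:178351673-178352451, 779 bp, intron 35 of Sycp2-201) held 2.23% and 2.44% against 3.46% and 3.58% (counts 288 and 189 against 374 and 329), a change of 0.62 ± 0.18 (DESeq2 adjusted p = 0.0633). No member intron was called without Tdrd6+/- replicate 1, Tdrd6+/- replicate 2 or Tdrd6-/- replicate 2, and the 5 called without Tdrd6-/- replicate 1 were introns 8, 9 and 32 of Sycp1 and 30 and 44 of Sycp2. Sycp2 introns 9 and 21 thus lost their calls whichever sample was left out, with DESeq2 adjusted p of at least 0.150 and 0.128.

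Set against the gene's exon count in place of its other introns, 7 of 74 member introns tested were called and all 7 were lower, namely introns 3, 9 and 11 of Sycp1, 21, 30 and 31 of Sycp2 and 4 of Hormad2. Across the genome 4.25% of 29816 introns were called in that test and 3.20% were called lower, so most calls were in this direction. Neither of the introns called higher above was called in that test. Sycp1 intron 3 overlaps Gm33952 and Gm42816 on the opposite strand, which makes its counts uncertain. An edgeR test of usage called 3 of 145 member introns, against 0.220% of 128748, all of Sycp1 and all short (introns 8, 29 and 32), so of the 5 introns intron 32 was called by both tests. Introns 8 and 29 were under the mean count filter of the first test. Intron 8 (612 bp) had 67 and 38 counts in Tdrd6+/- and 100 and 113 in Tdrd6-/-, and intron 29 (345 bp) had 34 and 22 against 65 and 63.

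**Figure D5:**
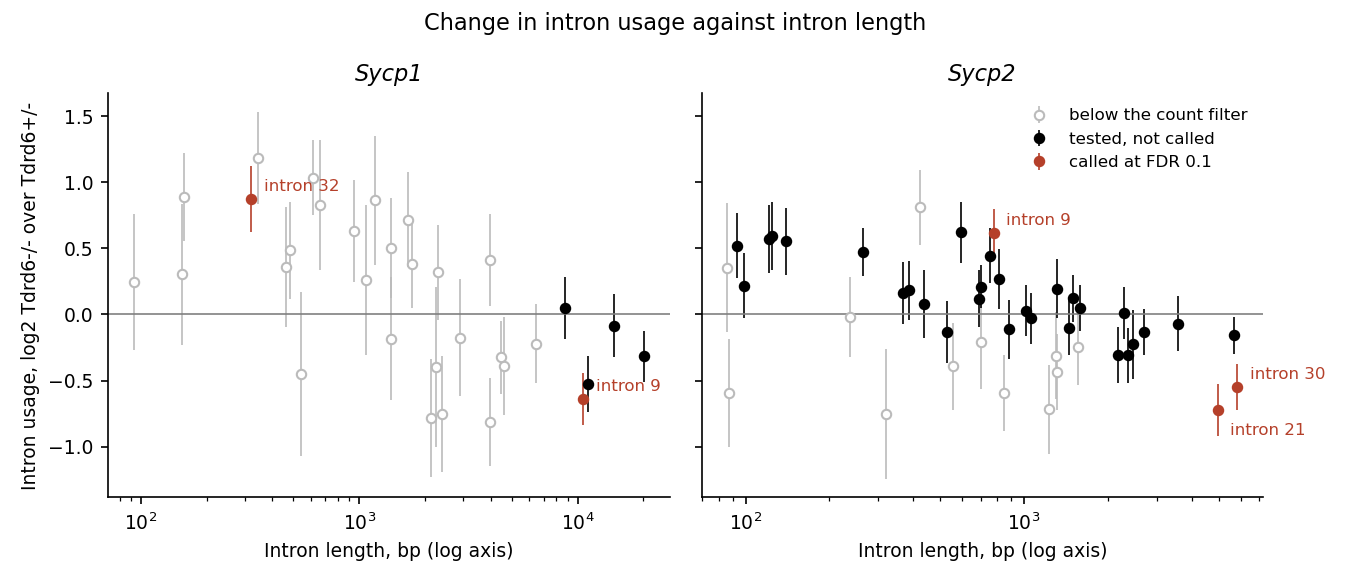
Log2 change in usage of each Sycp1 and Sycp2 intron in Tdrd6-/- against its length in bp (log axis), with bars for the standard error, called introns in red with their numbers, other tested introns in black and those below the count filter as open grey points. In Sycp1 10 of 11 introns under 1 kb lie above 0 and 13 of 21 longer ones below 0.

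In some members introns of different length shifted differently in usage. The split used, at 1 kb, was chosen after the values were seen and is a description. In Sycp1, the 11 introns under 1 kb held 16.2% and 18.6% of intron counts in Tdrd6+/- and 25.0% and 32.4% in Tdrd6-/-. Their counts were 412 and 306 against 555 and 673, while the 21 longer introns had 2130 and 1341 against 1661 and 1402. The difference of 11.3 percentage points lay above that of 99.0% of 3867 genes with at least 100 counts on each side, whose median was 1.11 points and of which 73.3% were above 0. In Sycp2 the 25 short introns held 32.0% and 34.9% against 39.4% and 40.9%, a difference of 6.64 points, above 94.8% of genes. The Sycp2 introns were mixed, with usage below 0 in 8 of 25 short and above 0 in 5 of 19 long ones. In Trip13 the short introns held 13.8% and 20.8% against 21.3% and 26.2%, a difference of 6.47 points, above 94.2% of genes. Other members lay nearer the middle of the genes. The difference was 2.59 points in Syce1 (above 71.6% of genes) and 2.01 in Hormad2 (64.5%). It was 0.82 in Hormad1 (44.8%) and 0.56 in Sycp3 (39.7%). Groups overlapped in Syce1, Hormad1 and Sycp3. Syce2 and Syce3 had too few counts on short introns for this comparison. Higher shares in both Tdrd6-/- samples were seen in 34.1% of the 3867 genes. In Tex12 the share of short introns was lower instead, at 43.5% and 47.6% against 39.0% and 32.0%, and all 4 of its introns, short and long, overlap Il18 on the opposite strand, so that the source of their counts is uncertain, as whether counting used strand is not given in the sources used here.

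The rank correlation of intron length with the change in usage, given as a description because introns of a gene share libraries and a total, was -0.61 over 32 introns of Sycp1, -0.49 over 44 of Sycp2, -0.74 over 13 of Hormad2 and -0.72 over 11 of Trip13. It was -0.38 over 12 introns of Syce1 and -0.20 over 15 of Hormad1. Each intron weighed the same in it, whatever its counts. Of Hormad2 only 5 of these 13 introns passed the mean count filter of the usage test, and of Trip13 0. The 6 Hormad2 introns under 1 kb held 81 to 97 counts per sample in all. Over 3062 genes with at least 10 introns the median was -0.19, and 7.94% of them lay below Sycp1, 15.9% below Sycp2, 2.61% below Hormad2 and 3.33% below Trip13.

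Each member's largest contributor of intron counts was otherwise without a call. In Sycp2 this was intron 38 (5697 bp), with 3334 and 1962 counts in Tdrd6+/- and 2556 and 2154 in Tdrd6-/- (log2 usage -0.16, DESeq2 adjusted p = 0.799). In Hormad2 it was intron 1 (61923 bp), which alone held 58.2% of the gene's intron counts, with 1434 and 973 against 947 and 618 (-0.17, adjusted p = 0.839). The leading intron was not always a long one. In Syce1 the 167 bp intron 7 led with 441 and 574 against 632 and 729 counts (0.09, adjusted p = 0.942). Hormad1 intron 7 (4580 bp) had 620 and 396 against 450 and 342 (-0.22, adjusted p = 0.778), and Syce2 intron 2 (10598 bp) 146 and 137 against 186 and 158 (-0.21, adjusted p = 0.899). In 3 members another gene overlaps the leading intron, which makes its counts uncertain. Sycp3 intron 4 (2568 bp, with Chpt1 on the other strand) had 202 and 170 against 193 and 200 counts, Tex12 intron 4 (1927 bp, with Il18) 95 and 76 against 97 and 170, and Trip13 intron 7 (6674 bp, with Gm25197) 133 and 94 against 63 and 45. Syce3 intron 2 (12756 bp), with 21 and 31 against 40 and 27 counts, was too low to be tested, as was that of Trip13.

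Usage of exon segments and junctions within the members was not called to differ. Of 347 features with at least 10 counts, 273 passed the mean count filter (151 exon segments, 120 annotated and 2 unannotated junctions), and 0 were called by a JunctionSeq-type model at FDR 0.1, against 0.221% of 147710 features across the genome. At an unadjusted p under 0.05, 3 of the 273 passed, against 4.36% of all features. Their median log2 change was 0.03, against 0.02 over all features. The smallest adjusted p was that of a Sycp2 junction with 381 and 333 counts in Tdrd6+/- and 725 and 753 in Tdrd6-/- (log2 change in usage 0.38 ± 0.13, SE, DESeq2 adjusted p = 0.443). The edgeR usage test called 1 member feature of 347, against 0.141% of 323115, a segment at the 3′ end of the intron this junction spans (chr2:178375045-178375270, 226 bp), annotated as exon in transcript Sycp2-203. It had 58 and 31 counts in Tdrd6+/- and 26 and 22 in Tdrd6-/- (edgeR adjusted p = 0.00509), under the mean count filter of the first test. Junction and segment, which exclude each other in a transcript, thus differed in opposite directions, and both were picked out after their values were seen.

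The isoforms in use could be read from junction counts in both genotypes. In Hormad1, the exon before the last was both used and skipped in every sample, with 181 to 281 counts on the junction into it, 169 to 293 on the junction from it to the last exon and 345 to 570 on the junction that skips it. Its first exon was joined to the next from 2 nearby donor sites, with 62 to 82 and 168 to 261 counts. In Tex12, an unannotated junction had 38, 21, 29 and 60 counts in the 4 samples (Tdrd6+/- first), more in each than the 9, 16, 17 and 13 on the annotated junction over its first intron. Sycp2 held 2 unannotated junctions of some depth, with 63 to 105 and 44 to 97 counts per sample. A Syce2 junction that skips an exon had 4 to 7 counts per sample. A Sycp3 junction annotated to skip an exon had 0 counts in all samples, while the junction within its last exon had 501 to 860. For none of these was a change in usage between genotypes called.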

How the data were processed

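The authors aligned the reads with GSNAP to mm10 and deposited raw counts for each sample, on introns and on genes, exon segments and junctions (Ensembl 75). The base calling tool in the submitters' processing notes is bcl2fastq 1.8.4. The counting program and its strand setting are not given in the sources used here. The deposited counts carry no coordinates, so positions were taken from GENCODE M21 (mm10) by the order of features.

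From these counts, edgeR 4.0.16 quasi-likelihood tests (R 4.3.3, TMM, filterByExpr) were fitted over all genes for gene counts, for summed intron counts and for their ratio (the interaction of genotype with kind of count). The study used DEXSeq and JunctionSeq. As neither is installed here, their models were fitted with DESeq2 1.42.0 by likelihood ratio test, on features with at least 10 counts. Independent filtering left introns with a mean of at least 85.5 counts and exon segments or junctions with at least 53.4. Benjamini-Hochberg adjustment ran over the whole table at FDR 0.1, the level the study used. Shares were tested by exact permutation over the samples, and rank correlations were computed with scipy 1.17.1. The edgeR models of gene counts and of the ratio, and the 2 main usage models, were run on simulated data. The spread there was set in advance and not taken from these pools, so nothing is concluded from it. The edgeR usage test and the test against the exonic count were not run on simulated data. A count of 2 against 2 pools limits precision far more than counting error, and a feature with few counts cannot show a small difference.

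Members, marker lists and pathway lists were chosen with earlier results of these data known. All members are named, with every feature called and each member's intron with most counts, and of the pathway lists the genes called. Ankrd31 was not matched. Spdya and Insl3 were read from rows that the authors merged with overlapping genes. Alternatives covered normalization, low-count filters, tool, stricter FDR, a replicate block and leaving out each sample. Those with crossed replicate numbers, or without the intron that holds most counts, were added after the data were seen.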

Additional observations from a re-analysis of the deposited data

How the results depend on the processing

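With 2 samples per genotype most calls turned on single samples, and the cause was not tested for any change given here. For gene expression 2 members were called, against 1 at FDR 0.05 and 0 with no low-count filter, where 75 genes were called in the whole table against 794. One ratio was called, against 0 with common scaling, with crossed replicate numbers, without the largest intron or at FDR 0.05. Of introns 5 were called, against 3 by edgeR, 2 at FDR 0.05 and 0 with crossed numbers. Exon and junction usage had 0 calls, against 1 by edgeR. Leaving out 1 sample gave 0 to 2 members called for gene expression, 0 to 2 for summed introns (Syce1 and Tex12 without Tdrd6-/- replicate 1), 0 to 1 for the ratio, 0 to 0 for exon and junction usage and 0 to 5 for intron usage. The median difference of the intron share was -4.23 percentage points, -7.58 to -3.11 with 1 sample left out, and -9.59 as a percentage of gene counts. The summed level of the members, 914.7 CPM per kb, was 1899 CPM without length.

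Scaling introns by gene counts moved the median over all genes from 0.07 to -0.23 and turned the summed introns of Sycp1 (-0.21), Sycp2 (-0.30), Sycp3 (-0.21) and Syce3 (-0.16). Common scaling turned the ratio of Syce1 (-0.15), Syce2 (-0.14) and Tex12 (-0.077), and the ratio of Tex12 was -0.15 without its largest intron. Against the exonic count, Syce2 intron 2 was at 0.10. Leaving out 1 sample turned values that were not called: gene expression of Hormad1 (-0.17 to 0.23), Hormad2 (-0.19 to 0.37) and Tex12 (-0.021 to 0.43), summed introns of Sycp1 (-0.15 to 0.42), Sycp2 (-0.28 to 0.39), Sycp3 (-0.18 to 0.38), Hormad1 (-0.29 to 0.10) and Tex12 (-0.11 to 0.95), ratios of Syce1 (-0.018 to 0.32), Sycp3 (-0.21 to 0.12), Syce3 (-0.41 to 0.17) and Tex12 (-0.087 to 0.54), and usage of Sycp3 intron 4 (-0.031 to 0.14), Hormad2 intron 1 (-0.37 to 0.018) and Syce1 intron 7 (-0.052 to 0.24).

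Samples share only a replicate number (correlation of deviations -0.117 over 12347 genes). With the replicate block 2 members were called for gene expression, 0 for summed introns, 1 for the ratio, 0 for exon and junction usage and 6 for intron usage. Over the whole table introns called rose from 561 to 881 with the block and were 255 with crossed numbers, 283 by edgeR, 1266 against the exonic count and 327 at FDR 0.05. Genes called for summed introns were 214, against 394 by DESeq2, 3 scaled by gene counts, 82 crossed and 112 at FDR 0.05, and for the ratio 390, against 247 with common scaling, 158 crossed and 190 at FDR 0.05. With 1 sample left out these counts ran from 257 to 1064 (gene expression), 4 to 951 (summed introns), 58 to 1145 (ratio), 51 to 765 (exons and junctions) and 4 to 1188 (intron usage).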
